A study of Mus musculus with 45 samples.

Results

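The 10 genes described here are the Nodal signalling and primitive streak genes Nodal, Tdgf1, Lefty1, Lefty2, Wnt3, T, Eomes, Mixl1, Gsc and Evx1. They were taken by gene symbol, with no rule on a measured value, although earlier results of these data were known. All 10 were found, with values in all 12 samples, in each of 2 RNA-seq tables that list 33924 genes. The samples were mouse embryonic stem cells (ESCs) of strain 129, grown in serum with LIF, in which the lncRNA gene 5430416N02Rik had been deleted. In the ΔG lines a GFP-IRES-Puro cassette took the place of the gene body, and in the ΔPG lines a PGK-puro cassette took the place of the gene body together with its promoter. Each line was sampled as heterozygous cells, with a single allele deleted, and as homozygous cells, with both alleles deleted, so the heterozygous controls carry the deletion too. Each genotype was sampled as ES, kept with the solvent DMSO, and as RA, given retinoic acid at 2 µM, both for 48 hours. This gave 8 groups of 3 samples. The methods call the samples of a group biological replicates and do not say whether they came from separate clones, so p-values measure the spread between these replicates, and a difference between genotypes cannot be told apart from one between clones.

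Nodal is a secreted ligand of the TGF-β family that signals through activin receptors and the SMAD proteins. It needs the co-receptor encoded by Tdgf1 (Cripto), and it induces its own secreted inhibitors, Lefty1 and Lefty2. In the mouse embryo, Nodal and the ligand Wnt3 set up the primitive streak, the region where cells leave the epiblast to form mesoderm and endoderm. T (Brachyury), Eomes, Mixl1, Gsc and Evx1 encode transcription factors of the streak and of its derivatives, and ESCs in serum are known to carry Nodal, Tdgf1 and Lefty transcripts before any streak forms.

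The deposited values are regularized log (rlog) values, made from read counts on a log2 scale, where a step of 1 is a doubling and genes with few reads are pulled toward their mean. A difference was called where limma gave a Benjamini-Hochberg adjusted p under 0.1 over all genes that varied, 22048 in the ΔG table and 21979 in the ΔPG table, and where the log2 difference was over 0.5. The deleted gene followed the labels. 5430416N02Rik had rlog values of 5.50 to 5.64 in heterozygous and 2.63 to 3.08 in homozygous ΔG samples, and of 3.80 to 4.62 and 2.12 to 2.66 in the ΔPG samples. The 9 ESC markers found in the tables averaged 9.86 to 10.1 over the ES samples and 7.09 to 7.26 over the RA samples. Extraembryonic endoderm markers averaged 4.14 to 4.5 in ES and 6.33 to 7.42 in RA, fibroblast markers 2.03 to 2.35 and 3.94 to 4.31, and neural markers 1.93 to 2.37 and 2.49 to 3.07.

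The 4 members printed here changed in at least 3 comparisons and have an upstream sequence of 250 bases in RefSeq (GRCm38.p6). They are shown because these genes were lower together after retinoic acid. Entries were matched for 7 of the 10 members. Lefty1, Lefty2 and Mixl1 were not matched. Capitals mark the letters of any motif found on either strand.
Tdgf1, chr9:110946159-110946408, minus strand: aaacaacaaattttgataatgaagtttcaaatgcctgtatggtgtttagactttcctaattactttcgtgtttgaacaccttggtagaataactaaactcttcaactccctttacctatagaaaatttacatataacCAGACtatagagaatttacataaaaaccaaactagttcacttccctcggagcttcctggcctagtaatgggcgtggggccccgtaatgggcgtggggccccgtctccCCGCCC
Nodal, chr10:61417722-61417971, plus strand: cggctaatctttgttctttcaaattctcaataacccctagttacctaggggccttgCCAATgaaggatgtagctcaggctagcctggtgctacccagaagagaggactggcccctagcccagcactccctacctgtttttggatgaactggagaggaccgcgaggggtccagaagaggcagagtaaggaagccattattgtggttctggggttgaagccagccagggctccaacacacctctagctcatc
T, chr17:8434173-8434422, plus strand: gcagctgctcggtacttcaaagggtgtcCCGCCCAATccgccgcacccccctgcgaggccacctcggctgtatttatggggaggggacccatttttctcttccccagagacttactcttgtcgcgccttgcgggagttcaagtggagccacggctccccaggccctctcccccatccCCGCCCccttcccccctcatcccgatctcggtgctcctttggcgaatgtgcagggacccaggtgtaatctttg
Eomes, chr9:118477939-118478188, plus strand: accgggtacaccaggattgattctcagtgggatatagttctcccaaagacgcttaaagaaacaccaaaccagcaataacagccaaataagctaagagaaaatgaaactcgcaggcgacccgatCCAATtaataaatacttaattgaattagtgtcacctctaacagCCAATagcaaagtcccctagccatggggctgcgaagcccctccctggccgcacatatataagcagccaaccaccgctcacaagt

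Motifs were searched with their reverse complements. The FOXH1 motif was read as AATCCACA, the SMAD motif as CAGAC and the T-box motif as AGGTGTGA. The TCF/LEF motif was read as CTTTGAT, the octamer as ATGCAAAT and the hexamer of nuclear receptors as AGGTCA. The core promoter elements were the GC box (GGGCGG), the CCAAT box by the letters of its name and the TATA box (TATAAA). Upstream of Tdgf1 a SMAD motif stood 113 to 109 bases and a reversed GC box 6 to 1 bases before the start. The SMAD letters occurred in 42.2% and the GC box in 32.7% of the 32851 windows of the same length. Nodal had 1 CCAAT box and Eomes had 2, while T had 1 that overlaps a reversed GC box by 2 letters, and a further reversed GC box nearer its start. CCAAT boxes occurred in 33.8% of all windows. None of these 4 windows held the FOXH1, T-box, TCF/LEF, octamer, nuclear receptor or TATA letters, which were found in 0.718%, 1.12%, 3.21%, 1.60%, 14.0% and 12.4% of all windows. The GC content of the windows was 42% for Tdgf1, 53.2% for Nodal, 62.8% for T and 46.4% for Eomes, against a median of 52.4% over all windows.

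By annotation (NCBIM37, GENCODE vM1), 3 members lie close together on chromosome 1. Mixl1 is on the minus strand at chr1:182623174-182627165, and Lefty2 and Lefty1 are on the plus strand at chr1:182823239-182829234 and chr1:182865153-182868531, 35.9 kb apart. Tdgf1 (chr9:110842114-110848662, minus) and Eomes (chr9:118387330-118395250, plus) are 7.54 Mb apart on chromosome 9. The others are Nodal (chr10:60880720-60888086), T (chr17:8627288-8635361), Wnt3 (chr11:103635464-103679271) and Evx1 (chr6:52263492-52268372) on the plus strand, and Gsc (chr12:105709419-105711537) on the minus strand. Some members share sequence with other genes. The coding sequences of Lefty1 and Lefty2, 1107 bases each, were identical at 91.9% of positions without gaps. Of the 1521 windows of 100 bases in the Lefty1 transcript, 73 (4.8%) also occur in that of Lefty2, where they are 3.07% of all windows. The split of reads from such windows between these genes is uncertain. The Tdgf1 pseudogene Tdgf1-ps2 stayed between -2.26 and -1.95 in every sample. Evx1 overlaps 5730457N03Rik on the opposite strand, and reads were counted by strand.

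By mean rlog over the ΔG samples, the members ran from percentile 21.2 (Evx1) to percentile 93.5 (Tdgf1) of the genes that varied. On the scale of rlog minus log2 of exonic length in kb, on which levels of different genes can be set side by side, Tdgf1 was highest in all 4 ES groups, at 9.87 to 10.86 over the ES samples. Lefty2 (7.96 to 8.20), Nodal (7.15 to 7.61) and Lefty1 (7.03 to 7.46) came next in every ES group. The neighbours Nodal and Lefty1 overlapped in heterozygous ΔG and homozygous ΔPG ES samples and were apart in the other two ES groups. Eomes followed at 2.42 to 3.20 and T at 1.41 to 3.15, and these overlapped in both ΔPG ES groups. Gsc, Mixl1, Wnt3 and Evx1 were lowest, at -2.70 to 0.55. In RA samples the order at the top changed. Tdgf1, at 4.57 to 5.63 per length, stood below Nodal (6.22 to 6.56), Lefty2 (6.28 to 6.57) and Lefty1 (5.54 to 6.49) by its group means in all 4 RA groups. Nodal and Lefty2 overlapped in 3 of these groups, Lefty2 and Lefty1 in heterozygous ΔG cells, and Tdgf1 overlapped Lefty1 in homozygous ΔPG cells. The weak members lie where rlog values are pulled most strongly toward the mean, so their level per length is the least certain.

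**Figure D1:**
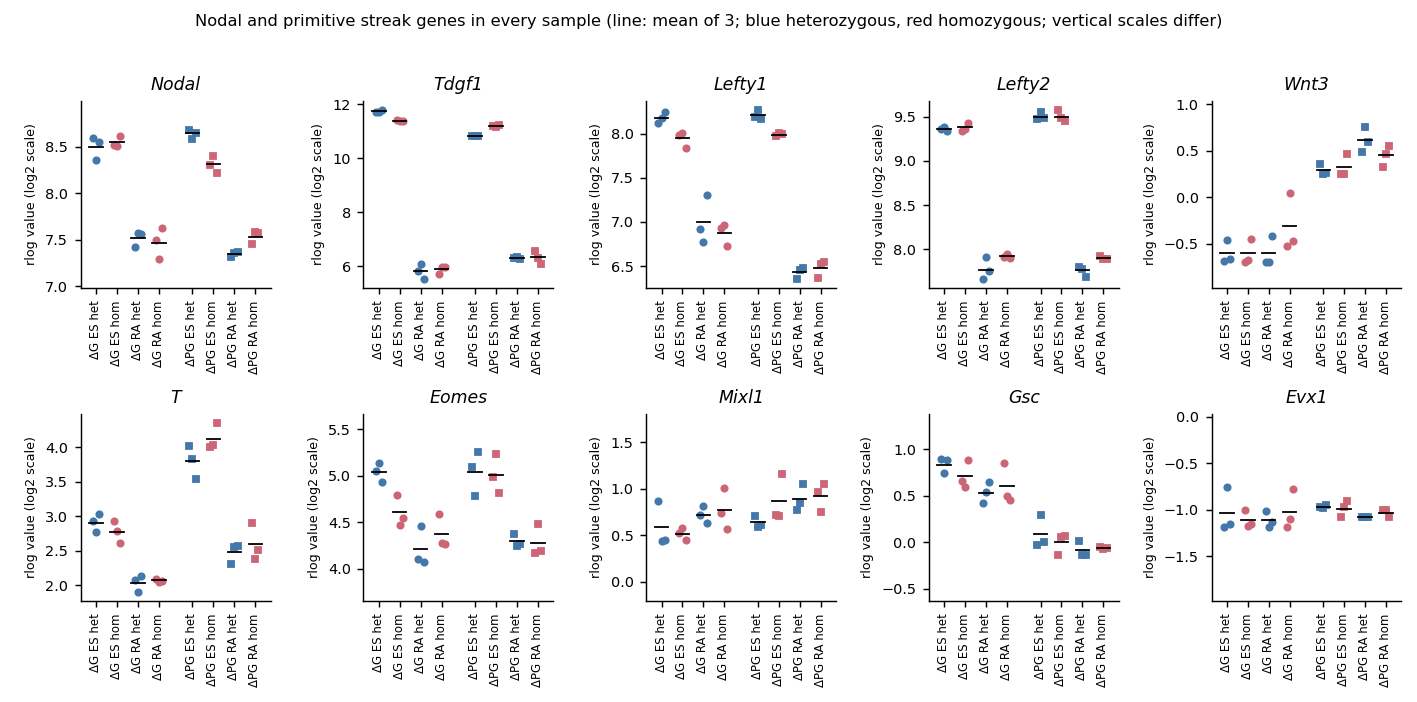
Each panel plots the rlog value (log2 scale) of a gene in all 24 samples, by line, treatment and genotype, with circles for ΔG, squares for ΔPG and a line at the mean of each group of 3; vertical scales differ. Nodal, Tdgf1, Lefty1, Lefty2 and T were lower in all 12 RA samples than in every ES sample of the same table, while Wnt3, Mixl1, Gsc and Evx1 stayed between -1.19 and 1.16.

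Retinoic acid was compared with DMSO within each line and genotype, to see how the Nodal genes and the streak genes moved as ESCs left self-renewal. The co-receptor Tdgf1, the ligand Nodal, the inhibitors Lefty1 and Lefty2 and the transcription factor T fell in all 4 comparisons, and Eomes fell in 3. No member rose in any. In ΔG cells 6 of the 10 members fell in the heterozygous and 5 in the homozygous samples, where 11.7% and 12.1% of all genes tested were called lower and 17.7% and 17.0% higher. In ΔPG cells 6 members fell in either genotype, where 13.6% (heterozygous) and 11.3% (homozygous) of all genes were called lower and 18.0% and 16.5% higher. The median difference of the 10 members was -0.85, -0.47, -1.01 and -0.75 in the 4 comparisons, taken in the order heterozygous and homozygous ΔG, then heterozygous and homozygous ΔPG, against 0.04, 0.02, 0.01 and 0.01 over all genes. Quantile normalization turned the balance over all genes to 3034 higher and 3292 lower in heterozygous ΔG cells (3911 and 2588 before it), 2947 and 3313 in homozygous ΔG (3759 and 2675 before), 3313 and 3498 in heterozygous ΔPG (3960 and 2987 before) and 2865 and 2981 in homozygous ΔPG (3634 and 2482 before). The same members were called lower under it, with Eomes added in homozygous ΔG cells. In such bulk samples, fewer cells of a type and less RNA per cell cannot be told apart. The comparisons used different samples, but those of 1 line come from 1 table and those of 2 lines from tables that were normalized separately.

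Tdgf1 moved by far more than the other members. In heterozygous ΔG cells its rlog values were 11.73, 11.72 and 11.80 in ES and 5.80, 6.09 and 5.51 in RA, and in homozygous ΔG cells 11.41, 11.39 and 11.39 in ES and 5.72, 5.96 and 5.97 in RA. In heterozygous ΔPG cells they were 10.81, 10.83 and 10.81 in ES and 6.31, 6.33 and 6.28 in RA, and in homozygous ΔPG cells 11.18, 11.17 and 11.24 in ES and 6.57, 6.30 and 6.09 in RA. The ES and RA samples were thus several units apart in each line, with a spread below 1 unit inside any group. The log2 difference was -5.95 (SE 0.105) and -5.51 (SE 0.0656) in heterozygous and homozygous ΔG cells, and -4.51 (SE 0.0269) and -4.87 (SE 0.0938) in the ΔPG cells. These are levels 61.9, 45.6, 22.8 and 29.3 times lower, with limma adjusted p-values from 3.65e-20 to 1.24e-11 in ΔG homozygous and ΔPG homozygous cells and of 6.38e-14 and 2.33e-10 in the heterozygous ones.

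Nodal itself fell by about 1 unit. In ΔG cells it stood at 8.59, 8.36 and 8.55 in heterozygous ES samples and at 7.42, 7.57 and 7.56 in RA, and at 8.52, 8.51 and 8.61 in homozygous ES samples and at 7.50, 7.29 and 7.63 in RA. In ΔPG cells it went from 8.68, 8.58 and 8.65 to 7.31, 7.36 and 7.37 in heterozygous samples, and from 8.30, 8.40 and 8.22 to 7.45, 7.58 and 7.57 in homozygous samples. No RA sample reached an ES sample of its line. The differences were -0.98 (SE 0.0752), -1.07 (SE 0.08), -1.29 (SE 0.0388) and -0.77 (SE 0.0642), or 1.98, 2.1, 2.44 and 1.71 times lower, and the adjusted p by limma was 1.44e-06 or less.

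Both inhibitors fell in all 4 comparisons. Lefty2 was at 9.34 to 9.43 in the 6 ΔG ES samples and at 7.66 to 7.95 in the 6 ΔG RA samples, and at 9.45 to 9.58 and 7.69 to 7.92 in ΔPG. Its differences, -1.59, -1.45, -1.75 and -1.61 with SEs of 0.0658, 0.0542, 0.0413 and 0.047, were close to each other in the 4 comparisons. Lefty1 was weaker. It had 8.12, 8.18 and 8.25 in heterozygous and 7.99, 8.01 and 7.84 in homozygous ΔG ES samples, and 6.92, 6.77 and 7.30 and 6.93, 6.96 and 6.73 in the matching RA samples. In ΔPG cells it had 8.19, 8.27 and 8.17 and then 7.97, 8.01 and 8.00 in ES, and 6.35, 6.45 and 6.48 and then 6.36, 6.52 and 6.55 in RA. Lefty1 therefore reached lower RA values in ΔPG than in ΔG cells, a difference between tables that was not tested. Its differences were -1.19 (SE 0.111) and -1.07 (SE 0.0839) in ΔG and -1.79 (SE 0.0489) and -1.52 (SE 0.0687) in ΔPG.

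Among the streak transcription factors, T was detected weakly and still fell everywhere. Its ES values were 2.93, 2.77 and 3.03 in heterozygous and 2.93, 2.79 and 2.62 in homozygous ΔG cells, and its RA values 2.07, 1.90 and 2.13 and 2.09, 2.05 and 2.06. In the ΔPG table, which was normalized separately, the ES values were 4.02, 3.83 and 3.54 in heterozygous and 4.01, 4.03 and 4.36 in homozygous cells, and fell to 2.31, 2.56 and 2.57 and to 2.90, 2.38 and 2.51. ES and RA samples did not overlap in either line. The differences were -0.87 (SE 0.133) and -0.71 (SE 0.137) in ΔG and -1.32 (SE 0.161) and -1.53 (SE 0.184) in ΔPG, with adjusted p-values by limma of 8.74e-05, 0.00026, 0.000277 and 3e-05.

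Eomes fell in 3 comparisons of 4. In heterozygous ΔG cells it had 5.05, 5.14 and 4.93 in ES and 4.11, 4.46 and 4.07 in RA (difference -0.83, SE 0.129, adjusted p = 0.000106 by limma). In homozygous ΔG cells it started lower, at 4.79, 4.47 and 4.55, and had 4.59, 4.28 and 4.27 in RA, so the groups overlapped (difference -0.22, SE 0.138, limma adjusted p = 0.205). After quantile normalization this difference was -0.62 and was called (limma adjusted p = 0.0154). In ΔPG cells Eomes had 5.09, 4.78 and 5.25 in heterozygous and 4.99, 5.23 and 4.81 in homozygous ES samples, all above the RA values of 4.38, 4.25 and 4.27 and of 4.17, 4.48 and 4.19. Those differences were -0.74 (SE 0.132) and -0.73 (SE 0.149).

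The remaining members were near the bottom of the scale and none was called. Mixl1, a homeobox gene of mesendoderm, ranged from 0.44 to 1.16 over all samples, and the organizer homeobox gene Gsc from -0.14 to 0.89. Wnt3 ranged from -0.69 to 0.75 and Evx1, a homeobox gene of the posterior streak, from -1.19 to -0.76. Their differences between RA and ES lay between -0.30 for Gsc in heterozygous ΔG cells and 0.32 for Wnt3 in heterozygous ΔPG cells. On the adjusted p alone, without the limit on size, 7, 6, 9 and 6 of the 10 members passed in the 4 comparisons, where 54.5%, 53.4%, 57.4% and 52.0% of all genes did. The weak members among them were Gsc in heterozygous ΔG cells (-0.30, limma adjusted p = 0.0398), Wnt3 in homozygous ΔG cells (0.29, limma adjusted p = 0.0718), and Wnt3 (0.32, limma adjusted p = 0.013), Mixl1 (0.25, limma adjusted p = 0.0618) and Evx1 (-0.11, limma adjusted p = 0.00112) in heterozygous ΔPG cells. Wnt3 and Evx1 in heterozygous ΔPG cells passed on p under all 12 alternatives that could be run for them. Evx1, however, stood at -1.08 in all 3 of those RA samples, its lowest value in ΔPG. The small p there goes with an SE of only 0.0177 at the bottom of its range. The pull toward the mean can make differences at these levels smaller than those of the read counts.

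**Figure D2:**
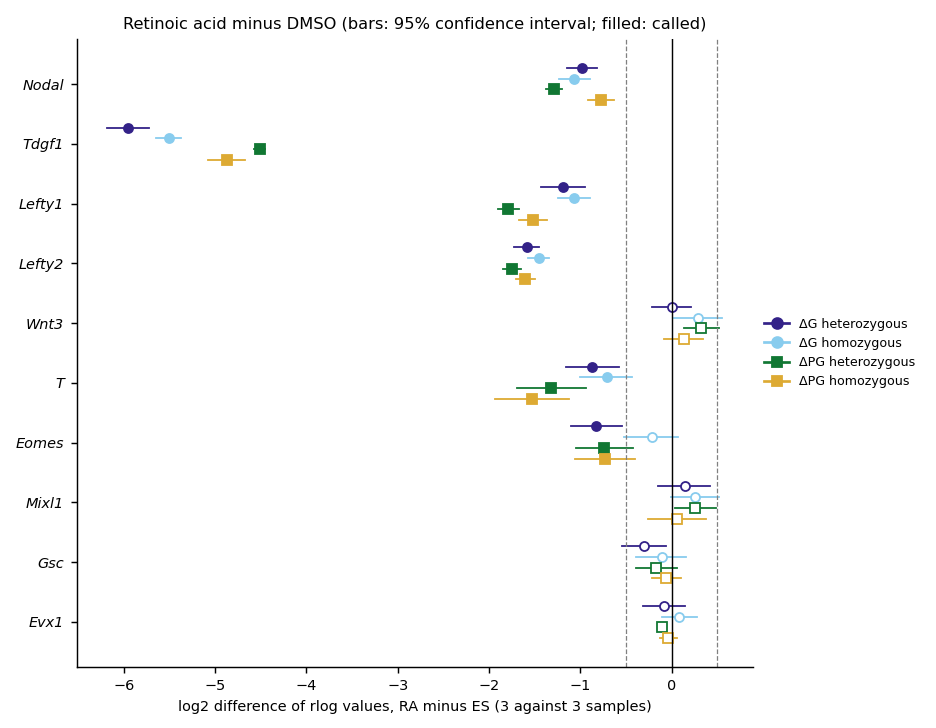
Log2 difference of rlog values, RA minus ES, for each of the 10 genes in the 4 lines and genotypes, with 95% confidence intervals over 3 against 3 samples; filled symbols are called differences and dashed lines mark ±0.5. Tdgf1 lies at -5.95 to -4.51, Nodal, Lefty1, Lefty2 and T lie left of the dashed line throughout, and Eomes in homozygous ΔG cells is an open symbol at -0.22.

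The wider pathway held calls in both directions. Of 26 further Nodal pathway genes tested (receptors, SMAD proteins, convertases, other ligands, inhibitors and cofactors), 9, 10, 9 and 8 rose and 6, 6, 7 and 5 fell in the 4 comparisons. These are 34.6%, 38.5%, 34.6% and 30.8% called higher, beside 17.7%, 17.0%, 18.0% and 16.5% of all genes, and 23.1%, 23.1%, 26.9% and 19.2% called lower, beside 11.7%, 12.1%, 13.6% and 11.3%. The list medians were 0.12, 0.20, 0.04 and 0.03 against 0.04, 0.02, 0.01 and 0.01 over all genes. Gdf3, a ligand that also uses the Tdgf1 co-receptor, fell by 3.05 and 2.75 in ΔG and by 2.96 and 2.54 in ΔPG on the log2 scale. The activin subunit gene Inhbb fell in all 4 (-2.19, -1.88, -3.19 and -1.89). In the opposite direction, the signal transducer Smad3 rose by 2.97, 3.42, 2.81 and 2.89. The type II receptor gene Acvr2a rose in all 4 as well (1.02, 0.93, 1.39 and 0.86), as did Smad4 (0.73, 0.68, 0.84 and 0.62) and the convertase gene Furin (1.23, 1.54, 0.65 and 1.21), while the convertase gene Pcsk6 fell (-1.43, -1.59, -1.81 and -1.17). Foxh1, which encodes the cofactor that carries SMAD proteins to Nodal targets, was called in none (-0.34, 0.23, -0.45 and -0.11).

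Other genes of the streak and early mesendoderm also held calls in both directions, with more higher than lower, as among all genes. Of 29 tested in ΔG, 15 and 12 rose and 6 and 6 fell, and of 30 tested in ΔPG, 12 and 14 rose and 7 and 6 fell. In shares, 51.7%, 41.4%, 40% and 46.7% were called higher and 20.7%, 20.7%, 23.3% and 20% lower. Under quantile normalization, which turned the balance over all genes, 11 of this list rose in each comparison and 6, 6, 7 and 7 fell. Fgf4, which ESCs express under Oct4 and Sox2, fell by 4.88, 4.51, 4.41 and 4.19. The Wnt target genes Sp5 and Axin2 fell in all 4, with differences of -2.02, -1.87, -2.15 and -1.64 for Sp5 and of -1.05, -1.11, -1.38 and -0.96 for Axin2. Not all Wnt-related genes of the list fell, as Dkk1 rose in all 4 (1.88, 1.62, 2.21 and 1.68). The list genes that rose were led by the growth factor receptor gene Pdgfra (4.39, 3.72, 3.75 and 2.97) and the N-cadherin gene Cdh2 (3.57, 3.93, 3.45 and 3.07). Sox17 (2.52, 2.37, 2.46 and 1.99) and Foxa2 (1.89, 2.15, 2.27 and 2.00), transcription factor genes of endoderm, also rose, although T and Eomes did not. Sox17, Foxa2 and Pdgfra are also expressed in extraembryonic endoderm, and 11 of the 12 extraembryonic endoderm markers rose in every comparison, as did 8 of 8 genes of the direct retinoic acid response, while 8 of the 9 ESC markers fell. Of the fibroblast markers 8, 6, 7 and 8 of 10 rose and 1, Thy1, fell in heterozygous (-0.67) and homozygous (-0.53) ΔPG cells, and of the neural markers 4 of 8 rose and 1 fell in each comparison. Whether the makeup of the cultures has a part in the lower Nodal genes was not tested.

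**Figure D3:**
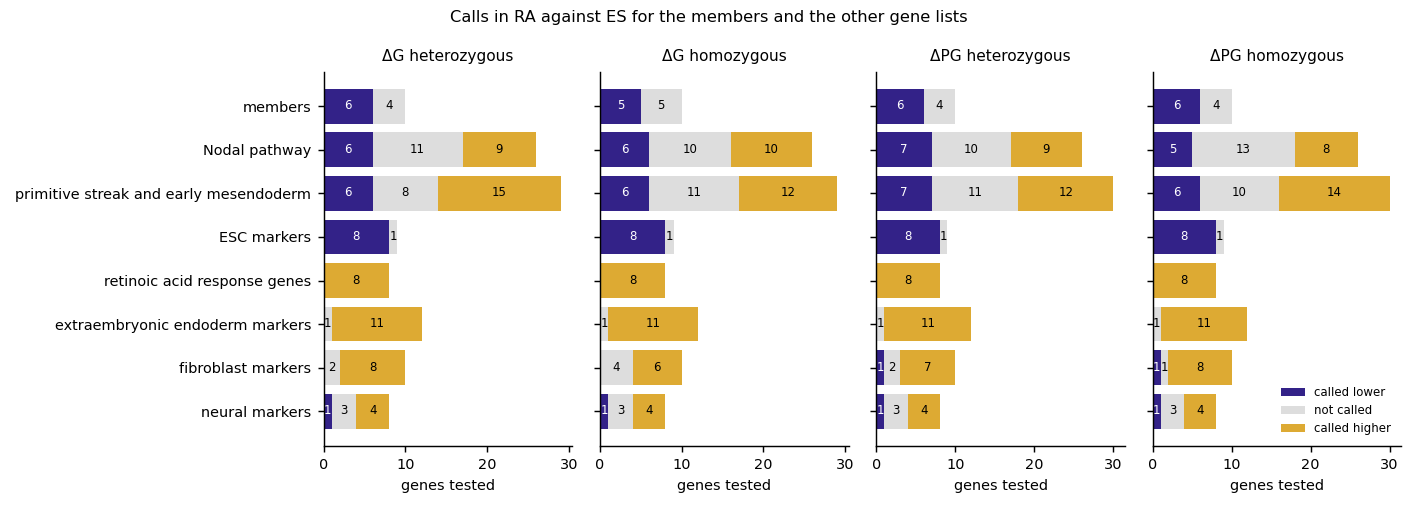
Number of genes called lower, not called and called higher in RA against ES, for the 10 members and 7 other gene lists, in the 4 lines and genotypes. The members fell or were not called, the Nodal pathway and streak lists hold calls in both directions, and ESC markers and extraembryonic endoderm markers point in opposite directions.

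Homozygous cells were compared with heterozygous cells to ask whether loss of the second 5430416N02Rik allele moved these genes. No member passed both limits by limma in any of the 4 comparisons. Among all genes, 0.984% in ΔG ES, 2.14% in ΔG RA, 13.2% in ΔPG ES and 0.846% in ΔPG RA samples did. At an unadjusted p under 0.05 there were 3, 1, 3 and 2 members. The share of all genes at that limit was not worked out, so these counts have no background beside them. On the adjusted p alone, 1 member passed in ΔG ES (5.22% of all genes), none in ΔG RA (11.0%), 3 in ΔPG ES (36.1%) and none in ΔPG RA (4.58%). The largest log2 difference of any member was -0.43, and the SEs were 0.022 to 0.177.

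Tdgf1 had the sharpest of these differences, with opposite signs in the ES samples of the 2 lines. Its homozygous ΔG ES values of 11.39 to 11.41 all lay below the heterozygous ones of 11.72 to 11.80 (difference -0.35, SE 0.0235, limma adjusted p = 0.000452). Its homozygous ΔPG ES values of 11.17 to 11.24 all lay above the heterozygous ones of 10.81 to 10.83 (difference 0.38, SE 0.022, limma adjusted p = 1.08e-05). Both fell short of the limit on size, and the difference between the lines was not tested because the tables were normalized separately. In RA the genotypes overlapped, with differences of 0.09 in ΔG and 0.01 in ΔPG.

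In ΔPG ES cells Nodal was lower in homozygous samples (8.30, 8.40 and 8.22) than in heterozygous ones (8.68, 8.58 and 8.65), by 0.33 on the log2 scale (SE 0.0534, limma adjusted p = 0.00204). Lefty1 was lower there as well (difference -0.22, SE 0.0401, limma adjusted p = 0.00395), while the 95% interval of the Lefty2 difference was -0.10 to 0.10. In ΔG ES cells Nodal and Lefty2 differed by 0.05 (interval -0.11 to 0.21) and 0.01 (interval -0.07 to 0.10). Lefty1 (-0.24, limma adjusted p = 0.112) and Eomes (-0.43, limma adjusted p = 0.105) had homozygous values below every heterozygous value there and did not pass over all genes that varied. T differed by 0.33 in ΔPG ES (interval -0.05 to 0.71) and by -0.13 in ΔG ES (interval -0.40 to 0.15), so the data do not settle its direction in either line.

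**Figure D4:**
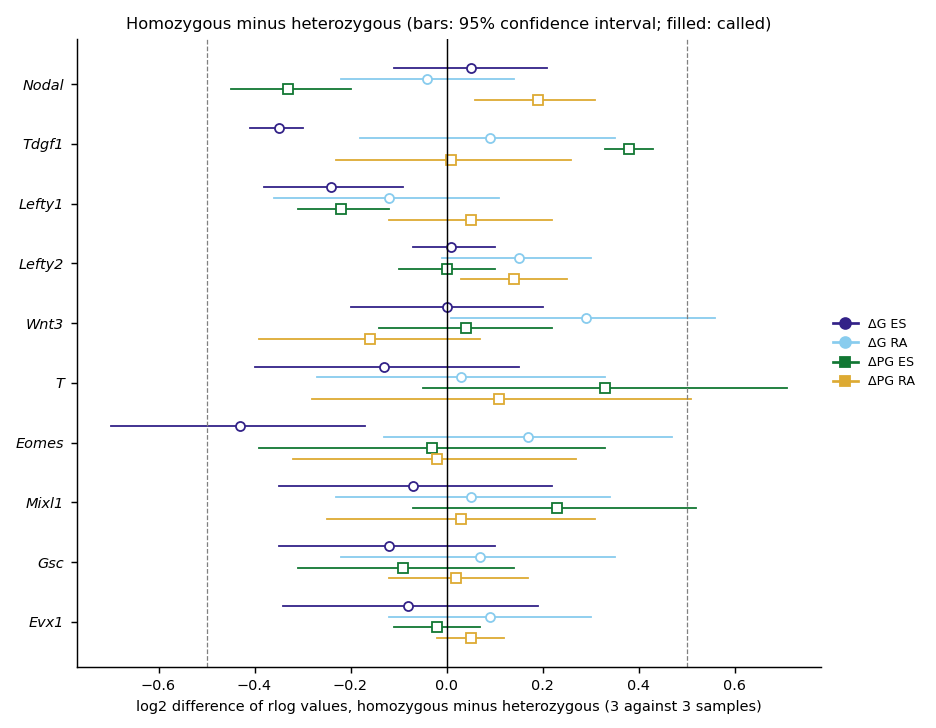
Log2 difference of rlog values, homozygous minus heterozygous, for each gene in ES and RA samples of both lines, with 95% confidence intervals over 3 against 3 samples; open symbols are differences that were not called and dashed lines mark ±0.5. All 40 symbols are open, and Tdgf1 in ES lies at -0.35 in ΔG and 0.38 in ΔPG.

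In the ΔPG ES samples the genotype difference of a gene moved with its exonic GC content. Across 11904 genes, which are not independent, its Pearson correlation with GC content was -0.705, against 0.00567 across 11997 genes in ΔG ES. Of the members that passed on p there, Tdgf1 (0.38) has 45.4% GC, Nodal (-0.33) 55.9% and Lefty1 (-0.22) 59%. With the trend on GC content removed over genes with a mean rlog of at least 3, 6 members could be tested. The difference of Nodal went from -0.33 to 0.01 (limma adjusted p = 0.849), and that of Tdgf1 from 0.38 to 0.18 (limma adjusted p = 9.25e-08). Lefty1 changed sign, from -0.22 to 0.24 (limma adjusted p = 0.000289), and Lefty2 went from near 0 to 0.18 and then passed on p (limma adjusted p = 0.000174). Eomes went from -0.03 to 0.18 (limma adjusted p = 0.317). T, with 52.7% GC, went from 0.33 to 0.54 and was then called (limma adjusted p = 0.00575). In ΔG ES the same step left Tdgf1 at -0.35, Lefty1 at -0.24 and Eomes at -0.42. Over these fewer genes Lefty1 (limma adjusted p = 0.00962) and Eomes (limma adjusted p = 0.0286) passed on p, below the limit on size.

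**Figure D5:**
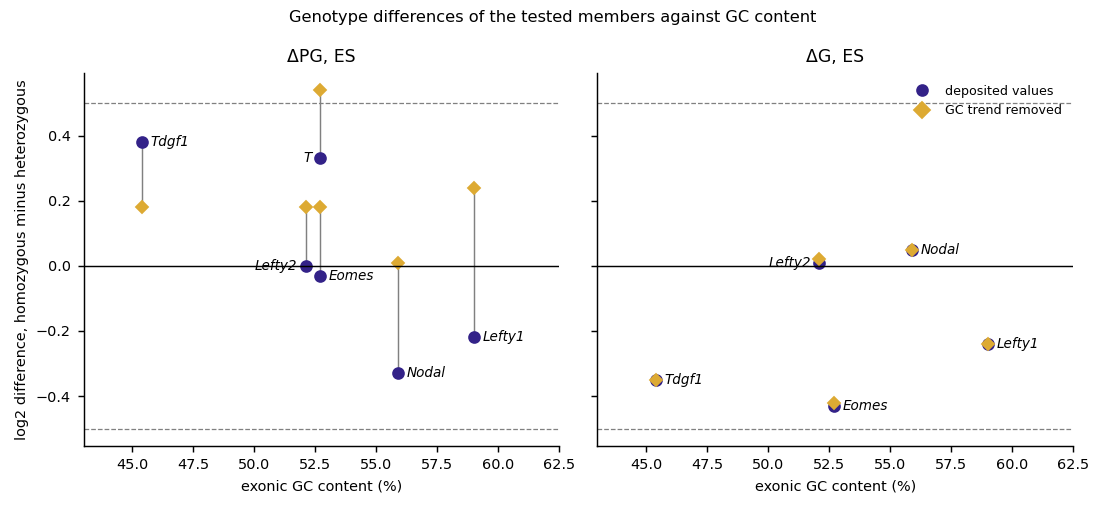
Genotype difference in ES samples (homozygous minus heterozygous, log2) against exonic GC content for the members with a mean rlog of at least 3, 6 in ΔPG and 5 in ΔG; circles are the deposited values, diamonds the values with the GC trend removed, and dashed lines mark ±0.5. In ΔPG the grey links are long, with Lefty1 going from -0.22 to 0.24, and in ΔG circles and diamonds nearly coincide.

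Whether the response to retinoic acid differed between genotypes was tested with an interaction term, fitted to all 12 samples of each table. In ΔG cells 1 member, Eomes, passed both limits, where 2.38% of all genes did, and 2 passed on p alone (5.28%). Eomes fell by 0.83 in heterozygous cells and differed by -0.22 in homozygous cells, an interaction of 0.60 (SE 0.191, limma adjusted p = 0.083). The call was lost after quantile normalization (0.59, limma adjusted p = 0.124), without a variance trend (0.60, limma adjusted p = 0.112) and when any of 7 single samples was left out. The interaction of Tdgf1 was 0.44 (SE 0.123, limma adjusted p = 0.0426). In ΔPG cells Nodal passed both limits, where 13.9% of all genes did, and 3 members passed on p alone (29.1%). Nodal fell by 1.29 in heterozygous and by 0.77 in homozygous ΔPG cells, an interaction of 0.51 (SE 0.0767, limma adjusted p = 0.000177), which became 0.19 (limma adjusted p = 0.0798) with the GC trend removed. Across genes the ΔPG interaction had a correlation of 0.695 with GC content. Lefty1 (0.27) and Tdgf1 (-0.36) passed on p alone, and the same step took them to -0.17 and -0.15.

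Few pathway genes were called between genotypes outside the ΔPG ES samples. Of the 26 Nodal pathway genes, 2 were lower and none higher in homozygous ΔG ES cells, none was called in ΔG RA, 3 were higher and 6 lower in ΔPG ES, and 1 was lower in ΔPG RA. The shares called were 7.69%, 0%, 34.6% and 3.85%, beside 0.984%, 2.14%, 13.2% and 0.846% of all genes. Those in ΔG ES included the SMAD repressor gene Skil (-0.53, limma adjusted p = 0.0011). In ΔPG ES the largest were Inhbb (-0.89), the SMAD4 regulator Trim33 (0.72) and Drap1 (-0.70), whose product restrains Foxh1. With the GC trend removed these were -0.37, 0.41 and -0.21, and of the 9 pathway genes called in ΔPG ES 0 were still called by limma, although 6 of them passed on p alone. The activin antagonist gene Fst was 0.90 lower on the log2 scale in homozygous ΔPG RA cells (difference -0.90, SE 0.137). Skil was called higher in ΔPG ES (0.57), which became -0.01 with the GC trend removed, while its lower level in ΔG ES was -0.54 after that step. The interaction was called in 2 of the 26 pathway genes in ΔG (7.69%, beside 2.38% of all genes), Skil (0.63) and Foxh1 (0.57), and in 11 in ΔPG (42.3%, beside 13.9%), 6 with a less negative or more positive response in homozygous cells and 5 the other way. Those of largest size in ΔPG were Inhbb (1.30), Fst (-1.18) and the receptor gene Acvr2b (1.01). Removal of the GC trend left 4 of the 11 called, among them Inhbb (0.80) and Fst (-1.05). Among streak genes the calls were 1 in ΔG ES (Cdh2, -0.60), 4 in ΔG RA, 1 in ΔPG ES (Pdgfra, 0.56) and 3 in ΔPG RA (Dkk1 -0.58, Wnt5a -0.58 and Sox17 -0.50). These are 3.45%, 13.8%, 3.33% and 10% of those tested, beside 0.984%, 2.14%, 13.2% and 0.846% of all genes. The limma adjusted p was 0.0914 for Cdh2, 0.0724 for Wnt5a and 0.0569 for Sox17. Quantile normalization kept 0 of the 1 call in ΔG ES and 2 of the 3 in ΔPG RA, and Sox17 was not called with the GC trend removed. In ΔG RA, Hand1 (0.81) and Kdr (0.57) were higher and Fgf5 (-0.78) and Pdgfra (-0.66) were lower. For streak genes the interaction was called in 3 of 29 in ΔG (10.3%, beside 2.38% of all genes). These were Hand1 (0.82), Fgf5 (-0.76) and Pdgfra (-0.67). In ΔPG it was called in 5 of 30 (16.7%, beside 13.9%), the largest being Pdgfra (-0.77), Wnt5a (-0.67) and Chrd (0.56). With the GC trend removed, 2 of the 2 that could be tested were still called in ΔG and 1 of 4, Pdgfra (-0.69), in ΔPG. In the RA samples 4 of 12 extraembryonic endoderm markers were called lower in homozygous ΔG cells and 7 of 12 in homozygous ΔPG cells, and their part in the pathway values was not tested.

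The profiles of the Nodal genes over samples were alike. Over the 12 samples of a table, which share the split into ES and RA, Tdgf1 and Lefty2 had a Pearson correlation of 0.995 in both tables, Nodal and Tdgf1 of 0.978 in ΔG and 0.946 in ΔPG, and Lefty1 and Lefty2 of 0.943 and 0.991. Eomes was less like the others in ΔG (0.742 to 0.798) than in ΔPG (0.915 to 0.919). Among 11761 other genes, those most like Tdgf1 in both tables were Nanog, Myst4 and Jam2, and those most like Lefty2 were Cd97, Nanog and Fgf4. Nodal was most like Mpdu1, Slc24a6 and X99384, Lefty1 most like Gpn1, Zfp296 and Baz2a, and Eomes most like Bhlhe40, Ndrg2 and Hist1h4d. A correlation over 0.9 in both tables was common for 4 of these 5 members, with 1155 to 1417 genes each, and was met by 2 genes for Eomes.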

How the data were processed

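RNA-seq values of 24 samples in 8 groups of 3 were used, and the other assays of the series were not used here. The authors aligned stranded, rRNA-depleted paired reads to NCBI37/mm9 with TopHat2 2.1.0, removed duplicates with Picard, assigned reads to GENCODE genes strand by strand with HTSeq 0.6.0, and deposited log2-scale rlog values made with DESeq2 1.14.1, in 1 table for ΔG and 1 for ΔPG. Each table was normalized on its own, so tests stay within a table. Library depth cannot be read from these values, so no interval for counting error could be formed.

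Limma 3.58.1 in R 4.3.3 (lmFit, then eBayes with trend) used the 6 samples of each pairwise comparison and, for interactions, the 12 samples of a table, over all genes that varied, and was tested on simulated data. Exact permutation of 3 against 3 samples cannot go below p = 0.1 and was not used. Alternatives were an adjusted p under 0.05 with a fold over 1.5, no limit on the difference, a minimum mean rlog of 3, quantile normalization, removal of the trend with exonic GC content by lowess, all 12 samples in 1 fit, no variance trend, a replicate block, and leaving out each sample. Tables were handled in Python 3.11.15 with pandas 2.3.3 and numpy 2.4.6. Promoter windows are RefSeq (GRCm38.p6). All 10 members are named; of the other lists, the 3 called genes with the largest absolute difference in each comparison were named by rule, except 1 gene that is not reported here, and further pathway genes and Thy1 were chosen after their values were seen. The members and lists were chosen with earlier results of these data known.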

Additional observations from a re-analysis of the deposited data

Results flagged for a closer look

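The first 2 values are interactions, singled out because a test of the difference between the genotypes' retinoic acid responses passed both limits. In ΔG cells the response of Eomes was 0.60 less negative in homozygous than in heterozygous cells (limma adjusted p = 0.083), from -0.83 and -0.22, with 3 samples in each of 4 groups. That call was made in 9 of 19 alternatives, and was lost under quantile normalization, without a variance trend, under the stricter limits and without any of 7 single samples. In ΔPG cells the response of Nodal was 0.51 less negative in homozygous cells (limma adjusted p = 0.000177), from -1.29 and -0.77, and 0.19 with the GC trend removed. It was called in 12 of 19 alternatives. Tdgf1 in ES cells was singled out because its genotype difference had opposite signs in the lines, at -0.35 in ΔG (lower in 3 of 3 homozygous samples than in any heterozygous one) and 0.38 in ΔPG (higher in 3 of 3). That difference between the lines was not tested.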

How the results depend on the processing

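The counts of members that fell after retinoic acid stayed within 1.5 times of those reported under each alternative that was run, and of 1408 alternative values for single members, 1375 kept their side of the limits, 17 lost a call, 16 gained one and 0 of the called differences reversed. Uncalled differences could change sign, as Lefty1 did in ΔPG ES with the GC trend removed. Without a limit on the difference, 1 member was called between genotypes in ΔG ES, 3 in ΔPG ES, 2 in the ΔG interaction and 3 in the ΔPG interaction. With the GC trend removed the count was 1 in ΔPG ES (T, of 6 members tested) and 0 in the ΔPG interaction. The ΔG interaction gave 0 under the stricter limits, quantile normalization and no variance trend, and the ΔPG interaction gave 0 under the stricter limits. Leaving out single samples gave counts of 0 to 2 in the ΔG interaction and 0 to 1 in the ΔPG interaction. The Eomes interaction lost its call without ES heterozygous replicate 1 or 2, ES homozygous replicate 2 or 3, RA heterozygous replicate 1 or 3, or RA homozygous replicate 1 (0.50 to 0.60, limma adjusted p 0.15 to 0.215). That of Tdgf1 gained one without RA heterozygous replicate 2 (0.58) or RA homozygous replicate 1 (0.52). The Nodal interaction in ΔPG fell under the limit on size without ES heterozygous replicate 1, ES homozygous replicate 3, RA heterozygous replicate 1, or RA homozygous replicate 2 or 3 (0.47 to 0.49). The cause was not tested. Deviations of samples with the same replicate number had correlations of -0.033 to 0.0102 in ΔG and -0.0255 to 0.0855 in ΔPG. For samples with different numbers these were -0.0347 to 0.0474 and -0.0722 to 0.0386. Samples were therefore not treated as pairs, and whether the numbers mark samples handled together was not tested. With the replicate block 6, 5, 6 and 6 members were called in RA against ES, 0 in each genotype comparison and 1 in each interaction, so it changed no call of a member, while over all genes the calls between genotypes went from 78 higher and 139 lower to 19 and 25 in ΔG ES and from 53 and 133 to 27 and 85 in ΔPG RA. The stricter limits left 46 higher and 71 lower genes in ΔG ES, 81 and 194 in ΔG RA (from 149 and 322) and 137 and 131 in the ΔG interaction (from 263 and 261). Removal of the GC trend left 547 and 301 in ΔPG ES (from 1510 and 1383) and 443 and 674 in the ΔPG interaction (from 1476 and 1580), with fewer genes tested. Quantile normalization gave 76 and 78 in ΔG ES. Without a limit on the difference the counts over all genes rose by more than 1.5 times in every comparison, to 6759 and 5253 in heterozygous and 6604 and 5168 in homozygous ΔG cells for RA against ES, and to 6979 and 5628 and 6435 and 4989 in ΔPG. Depth is unknown, and how far the values of Mixl1, Gsc, Wnt3 and Evx1 were pulled toward the mean cannot be read from the tables.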
